A study of Mus musculus with 32 samples.

Results

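The nuclear-encoded genes of the mitochondrial respiratory chain were followed in bone marrow-derived macrophages (BMDM) during the response to lipopolysaccharide (LPS). Members were the genes whose symbol starts with Nduf, Uqcr, Cox4, Cox5, Cox6, Cox7, Cox8 or Atp5, with the transcript of the highest mean count kept for each gene. That gave 92 members of 25067 named genes, and 83 of them were among the 11192 genes tested. Tested genes had a mean of more than 1 RPKM in at least 1 group. RPKM is reads per kilobase of transcript, scaled by library with the library size adjusted by TMM. The symbols fix the names and not the function, so the 92 members also held 8 complex I assembly factors and 3 paralogue or pseudogene copies. The macrophages came from male C57Bl6/J mice aged 6 to 12 weeks, grew for 7 days in medium conditioned by L929 cells, and were either wild type (BMDM-WT) or made deficient in Nur77, the nuclear receptor encoded by Nr4a1 (BMDM-Nur77-KO). The deletion was made in the whole body by crossing a loxP-flanked Nr4a1 locus to Cre driven by the cytomegalovirus promoter. Per the methods of the study, the deficient mice used no longer expressed Cre, and the wild-type mice were littermates. Each genotype received no LPS (0 h) or 100 ng/ml LPS for 1, 5 or 18 h, with 4 libraries in each of the 8 groups. The labels do not tie replicates to separate animals, so p-values measure the spread between libraries, which may be technical.

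The respiratory chain moves electrons from NADH and succinate to oxygen and uses the energy to pump protons across the inner mitochondrial membrane. Complex I (NADH dehydrogenase, the Nduf genes) and complex II feed electrons to ubiquinone, complex III (the Uqcr genes) passes them to cytochrome c, complex IV (cytochrome c oxidase, the Cox genes) reduces oxygen, and ATP synthase (the Atp5 genes) uses the proton gradient to make ATP. In macrophages, LPS is known to shift energy metabolism toward glycolysis, with lower respiration and with succinate and mitochondrial reactive oxygen species acting as signals.

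Promoter sequences are shown first for 3 members whose transcripts moved with LPS, the complex IV subunit Cox5a, which rose, and the complex I assembly factors Ndufaf7 and Ndufaf4, which fell. They are from RefSeq (mouse build GRCm38.p6), each the 250 bases before the start that the RefSeq promoter table uses, which for Cox5a and Ndufaf7 lies inside the longer gene interval given with their values, and capitals mark a match to the motif GCATGCGC of NRF1, a regulator of respiratory genes, on either strand.
Cox5a, chr9:57520982-57521231, plus strand: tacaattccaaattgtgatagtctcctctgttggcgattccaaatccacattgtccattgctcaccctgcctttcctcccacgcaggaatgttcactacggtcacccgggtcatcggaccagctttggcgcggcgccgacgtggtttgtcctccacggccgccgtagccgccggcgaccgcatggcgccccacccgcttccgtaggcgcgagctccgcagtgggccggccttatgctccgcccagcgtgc
Ndufaf7, chr17:78936885-78937134, plus strand: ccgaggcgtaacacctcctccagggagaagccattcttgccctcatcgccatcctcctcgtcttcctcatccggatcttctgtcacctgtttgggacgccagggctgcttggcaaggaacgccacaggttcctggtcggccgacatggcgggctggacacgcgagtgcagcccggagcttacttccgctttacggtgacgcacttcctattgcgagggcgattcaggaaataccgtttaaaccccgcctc
Ndufaf4, chr4:24897833-24898082, plus strand: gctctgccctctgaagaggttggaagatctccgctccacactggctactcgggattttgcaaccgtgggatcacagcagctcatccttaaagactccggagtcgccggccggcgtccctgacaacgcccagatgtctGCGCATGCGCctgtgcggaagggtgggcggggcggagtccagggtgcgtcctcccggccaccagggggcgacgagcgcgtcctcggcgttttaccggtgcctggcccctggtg

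RefSeq promoters, reaching from 250 bases before to 50 bases after the start, were held for 73 of the 92 members. In these windows and on both strands, GCATGCGC lay in 11 of 73 member genes (15.1%), in 6.29% of the 8871 tested genes with a window and in 3.05% of all 27025 genes. The motif AAGATGGC of YY1 also lay in 11 members (15.1%), against 5.78% of tested genes and 3.19% of all genes, and 9 of the 11 matches began 11 to 39 bases after the start on the strand of the gene. Complex I subunits, the largest group with 36 of the 92 members, carried most of the YY1 matches. That was not compared with their share of the windows. Of these matches, 6 are printed with the motif in capitals.
Ndufs4, chr13:114388045-114388067, minus strand: cctacaggAAGATGGCggcggtc
Ndufs6, chr13:73328434-73328457, minus strand: tcaccggcAAGATGGCggcggtgc
Ndufs7, chr10:80249465-80249488, plus strand: ccgaggccAAGATGGCggcgctgg
Ndufb8, chr19:44555393-44555412, minus strand: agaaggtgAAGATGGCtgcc
Ndufa9, chr6:126849100-126849123, minus strand: tgtgggagAAGATGGCggccgccg
Ndufc1, chr3:51408918-51408941, minus strand: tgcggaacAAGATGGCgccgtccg
NRF1 matches are shown for 5 subunits of complexes I, III and IV and ATP synthase, with capitals for every base that a match on either strand covers.
Cox6a1, chr5:115349103-115349128, minus strand: ggaacgggGCGCATGCGCgctctcgc
Atp5g2, chr15:102671072-102671097, minus strand: ctccggccGCGCATGCGCagagcctt
Atp5k, chr5:108434432-108434457, minus strand: tcactgcgGCGCATGCGCctttctgg
Ndufa6, chr15:82354359-82354382, minus strand: gcggtagaGCATGCGCattgcaga
Uqcr11, chr10:80406810-80406833, minus strand: gccttcacGCATGCGCtatacgtc
CCGGAAGT, the core bound by ETS proteins such as GABP, was in 5 members (6.85%), which was below the share of tested genes (10.0%) and above that of all genes (4.31%). TGANTCA, bound by AP-1, was in 7 members (9.59%, against 6.35% of tested and 8.97% of all genes), and TGACGTCA, bound by CREB, in 4 members (5.48%, against 3.71% and 2.03%). AAAGGTCA, the site described for NR4A receptors, was in 0 of the 73 members, against 1.12% of tested and 1.70% of all genes, and TCAAGGTCA, bound by ERR receptors, was in 1 (Atp5g3; 1.37%, against 0.304% and 0.466%). These matches describe letters in the windows and were not tested as binding sites.

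The libraries held 8742362 to 15780926 counts (median 11847140) over 1 transcript per gene, and Nr4a1 was lower in BMDM-Nur77-KO at 0, 1 and 5 h (log2 fold changes of -1.91 ± 0.19, -1.20 ± 0.15 and -1.55 ± 0.55, SE) and not called at 18 h. Its transcript was still measured there, with 4.42 to 6.92 CPM (counts-per-million, scaled by library) at 0 h and 146 to 244 CPM at 1 h in BMDM-Nur77-KO, against 15.5 to 25.5 and 358 to 483 CPM in BMDM-WT. Which part of the gene the deletion removes is not given in the sources used here. The call at 5 h, where no library held more than 9 counts, was lost without the first BMDM-Nur77-KO library (-1.31, adjusted p = 0.18). The 8 macrophage markers summed to 11100 to 18300 CPM in every library, while fibroblast markers reached 1.89 CPM, erythroid 0.472, B cell 4.73, mast cell 6.8, dendritic cell 26.7, T or NK cell 38.5 and neutrophil markers 52.3 CPM. The first BMDM-Nur77-KO library at 5 h stood apart (mean correlation with its own group of 0.964, against 0.979 to 0.985 in the others), as did the fourth at 18 h (0.9792, against 0.9875 to 0.9892). Where a fold change named from these groups lost its call or moved by over 1.5 times without that library, the value without it is given. Members were short transcripts, with a median of 758 bases against 2760.5 bases over all tested genes, and 65.1% of them were under 1000 bases against 9.77% of all. In bulk RNA, fewer cells and less RNA per cell cannot be told apart. The members took 0.532 to 0.569% of all counts in BMDM-WT at 0 h and 0.379 to 0.408% at 5 h, while their summed level after TMM scaling was 4479 ± 213 CPM at 0 h and 4952 ± 130 CPM at 5 h (mean ± SD, n = 4), so the direction of the sum at 5 h depended on the scaling. All CPM values, RPKM values and fold changes that follow are TMM-scaled.

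Before LPS, transcript levels per length followed the complexes in BMDM-WT, with low levels of the assembly factors and the highest among ATP synthase and complex IV subunits. Complex I assembly factors had a median of 3.95 RPKM, from 2.01 for Ndufaf6 to 7.85 for Ndufaf2. Complex I core subunits, which carry the flavin and iron-sulfur clusters, had a median of 28.2 RPKM, and accessory subunits, which surround that core, one of 36.3 RPKM. The median was 51.4 RPKM for complex III, 98.4 for complex IV, 117 for the catalytic F1 head of ATP synthase and 80.1 for its stalk and membrane parts. Within complex I the range ran from 4.19 RPKM for Ndufab1 to 92.3 RPKM for Ndufb8, and within the ATP synthase stalk and membrane part from 4.08 for Atp5g1 to 122 for Atp5g3. Levels of Ndufab1 and Atp5g1 were divided by long transcript models and may be low for that reason, which was not tested.

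**Figure D1:**
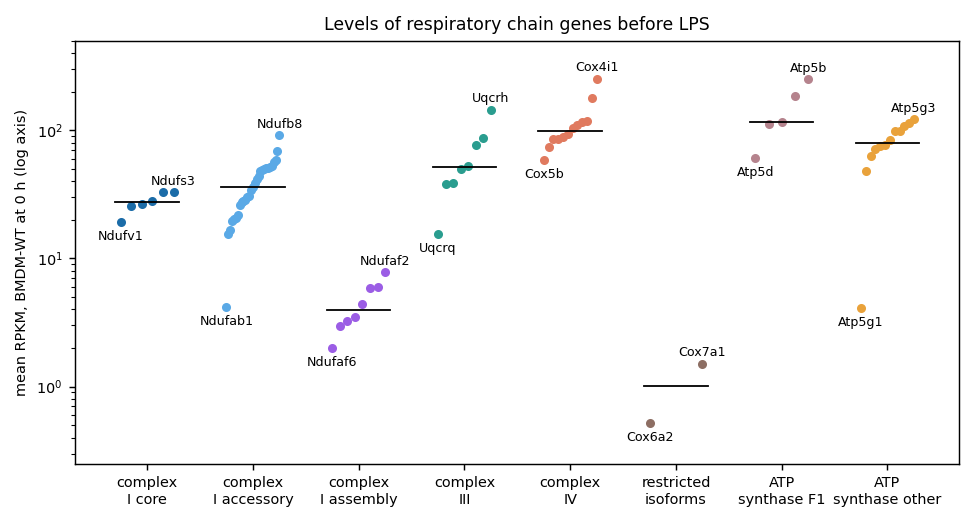
Mean RPKM of the tested members, with 1 not shown, in BMDM-WT at 0 h (log axis, n = 4 libraries), grouped by role; points are genes and the bar is the median of the genes shown. The isoforms Cox6a2 and Cox7a1 sit lowest (0.524 and 1.51 RPKM), then the assembly factors (median 3.95 RPKM), and the F1 head of ATP synthase highest (median 117 RPKM).

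Of 4 defining subunits of complexes I and III, Ndufv1 and Uqcrc1 were called in no comparison, while Ndufs1 and Uqcrfs1 changed with time. For Ndufv1, which binds NADH and flavin, the mean was 19.4 ± 2.57, 16.8 ± 2.21, 18.2 ± 2.2 and 18.2 ± 1.95 RPKM at 0, 1, 5 and 18 h in BMDM-WT and 17 ± 1.05, 18.3 ± 1.83, 13.5 ± 5.77 and 15.8 ± 4.08 RPKM in BMDM-Nur77-KO (SD, n = 4). Ndufs1, which carries iron-sulfur clusters beside Ndufv1, was at 28.2 ± 1.57, 28.2 ± 1.68, 23.4 ± 1.22 and 21.7 ± 1.37 RPKM in BMDM-WT and at 27.9 ± 2.02, 27.7 ± 1.4, 26.4 ± 4.41 and 20.4 ± 2.04 RPKM in BMDM-Nur77-KO. The level of Ndufs1 was lowest at 18 h in both genotypes. Uqcrc1, a core protein of complex III, was at 50.3 ± 3.94, 44 ± 1.18, 48.8 ± 5.24 and 41.6 ± 4.2 RPKM in BMDM-WT and 44.3 ± 2.99, 45.5 ± 1.84, 39 ± 12.4 and 37.8 ± 5.91 RPKM in BMDM-Nur77-KO. For the Rieske iron-sulfur protein Uqcrfs1 the levels were 38.6 ± 3.83, 36.3 ± 6.63, 49.2 ± 2.98 and 36.3 ± 3.18 RPKM, and 35.5 ± 3.6, 39.8 ± 2.57, 36.4 ± 13.5 and 36.4 ± 7.5 RPKM. Uqcrfs1 fell from 5 to 18 h in BMDM-WT (-0.44 ± 0.18, adjusted p = 0.03). The spread of all 4 was widest in BMDM-Nur77-KO at 5 h, the group with the library that stood apart.

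In the families with tissue-restricted or inducible isoforms, the ubiquitous copy was the higher. Cox4i1, the common subunit 4 of complex IV, was at 253 ± 33, 247 ± 23.5, 279 ± 14 and 227 ± 18.7 RPKM in BMDM-WT and at 242 ± 13.8, 254 ± 13.3, 246 ± 36.2 and 214 ± 19.9 RPKM in BMDM-Nur77-KO, and its hypoxia- and lung-associated isoform Cox4i2 had at most 5 counts in a library. Ndufa4, first named as a complex I subunit and now placed in complex IV, was at 88.4 ± 4.9, 89.4 ± 3.28, 100 ± 6.55 and 68.9 ± 5.07 RPKM in BMDM-WT and at 81.2 ± 3.37, 83.8 ± 2.8, 84.1 ± 12.1 and 64.6 ± 4.22 RPKM in BMDM-Nur77-KO. Its hypoxia-induced relative Ndufa4l2 had at most 2 counts in a library. Cox8b, Cox8c and Cox7b2 had 0 counts in every library, Cox6b2 at most 5, Ndufa11b 4 and Ndufb4c 7, at or near the limit of 3 counts that a count of 0 allows, so none of these was measurable at this depth. Ndufs5-ps, a pseudogene copy, reached 514 counts but differed from Ndufs5 by -1 to 12 counts in every library, so the reads of the pair could not be told apart.

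For the subunit pairs of complex IV that are split between muscle and other tissues, the ubiquitous copy was also the higher per length. Cox6a1 was at 118 ± 12, 102 ± 3.31, 119 ± 6.68 and 121 ± 13.5 RPKM in BMDM-WT and 92.9 ± 8.19, 107 ± 18.1, 91.1 ± 25.7 and 114 ± 24.1 RPKM in BMDM-Nur77-KO. The heart and skeletal muscle isoform Cox6a2 was at 0.524 ± 0.099, 0.762 ± 0.175, 1.28 ± 0.645 and 4.5 ± 1.07 RPKM in BMDM-WT and 0.691 ± 0.239, 0.576 ± 0.232, 0.596 ± 0.287 and 4.02 ± 1.04 RPKM in BMDM-Nur77-KO. Cox6a2 was therefore highest at 18 h in both genotypes and far below Cox6a1 at every time. Cox7a2 was at 84.8 ± 4.9, 79.2 ± 5.89, 103 ± 4.54 and 105 ± 10.7 RPKM in BMDM-WT and 74.5 ± 6.65, 79.5 ± 9.4, 80.9 ± 11.6 and 98.5 ± 10.4 RPKM in BMDM-Nur77-KO, and the muscle isoform Cox7a1 stayed between 0.741 ± 0.216 and 2.37 ± 0.966 RPKM over the 8 groups. Cox7a2l is described as a factor that joins complexes III and IV into supercomplexes, an activity not measured here. It was at 93.3 ± 11.1, 88.8 ± 8.06, 71.1 ± 5.09 and 73.1 ± 4.58 RPKM in BMDM-WT and 83.5 ± 9.56, 87.1 ± 7.04, 77.1 ± 3.97 and 74.3 ± 7.67 RPKM in BMDM-Nur77-KO. Cox8a was at 116 ± 9.57, 103 ± 4.01, 109 ± 9.08 and 117 ± 14.9 RPKM in BMDM-WT and 94.3 ± 8.05, 104 ± 14.9, 82.6 ± 35.3 and 112 ± 25.4 RPKM in BMDM-Nur77-KO. Cox6a1 and Cox8a were called in none of the comparisons.

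Among the subunits of complex IV with 1 main form, Cox5a changed its rank. It was at 110 ± 9.07, 104 ± 9.61, 154 ± 1.55 and 247 ± 13.4 RPKM in BMDM-WT and at 105 ± 6.19, 113 ± 13, 129 ± 22.8 and 238 ± 30.3 RPKM in BMDM-Nur77-KO, and at 18 h it had the highest mean of the 12 complex IV subunits in both genotypes. Its neighbour there, Cox4i1, was at 227 ± 18.7 and 214 ± 19.9 RPKM, so the ranges of the pair touched. Cox5b was at 58.7 ± 4.08, 54.9 ± 2.5, 62.7 ± 2.49 and 58.9 ± 2.14 RPKM in BMDM-WT and at 49.5 ± 5.08, 52.5 ± 3.54, 69.3 ± 16.5 and 59 ± 6.82 RPKM in BMDM-Nur77-KO.

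In ATP synthase the catalytic subunits were among the most abundant members. Atp5b, the catalytic beta subunit, was at 252 ± 18.4, 250 ± 14.3, 331 ± 13 and 277 ± 9.26 RPKM in BMDM-WT and at 254 ± 7.12, 262 ± 7.22, 268 ± 61.8 and 283 ± 42.1 RPKM in BMDM-Nur77-KO. Atp5a1, the alpha subunit, was at 186 ± 9.26, 180 ± 11.6, 251 ± 7.5 and 162 ± 3.65 RPKM in BMDM-WT and at 185 ± 8.9, 189 ± 5.4, 239 ± 7.07 and 166 ± 6.9 RPKM in BMDM-Nur77-KO. Both were highest at 5 h in BMDM-WT. The 3 genes that encode the same c subunit of the rotor ring differed in level, with Atp5g3 at 122 ± 3.74, Atp5g2 at 48.4 ± 3.9 and Atp5g1 at 4.08 ± 0.414 RPKM in BMDM-WT at 0 h. At 18 h they were at 103 ± 8.74, 30.1 ± 5.93 and 2.45 ± 0.539 RPKM in BMDM-WT, and at 95.6 ± 19.1, 24.8 ± 10.4 and 1.94 ± 0.735 RPKM in BMDM-Nur77-KO, in the same order.

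One hour of LPS left the members without a called change. The quasi-likelihood test of edgeR, adjusted over all tested genes by the Benjamini-Hochberg method, called 0 of 83 members in BMDM-WT, where 10.4% of all tested genes rose and 9.8% fell, and 7 members had an unadjusted p under 0.05. In BMDM-Nur77-KO it called 0 of 83, against 7.11% of genes higher and 5.08% lower, with 1 member at an unadjusted p under 0.05. DESeq2 called 1 member in BMDM-WT and 0 in BMDM-Nur77-KO. A fit of the 8 BMDM-WT libraries at 0 and 1 h alone called 2 members higher and 16 lower.

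At 5 h in BMDM-WT the members moved in both directions and by small amounts. The counts per complex below rest on few genes and were not tested against the shares of all genes. Of 83 members, 18 rose and 10 fell, against 30.8% and 39.1% of all tested genes, and both shares of the members lay below those of all genes. The median of the absolute log2 fold change was 0.16 over the members and 0.64 over all genes, and 1 member, Cox6a2, was called beyond a log2 fold change of 1, a size reached by 33.5% of all genes. ATP synthase had 6 of 17 genes higher and 0 lower, complex IV 6 of 12 higher and 1 lower, complex III 1 of 8 higher and 0 lower, complex I subunits 3 of 36 higher and 7 lower, and complex I assembly factors 1 of 8 higher and 2 lower. With DESeq2 size factors in the same model the split of all members was 26 higher and 7 lower, and with a GC correction 34 higher and 6 lower, so the share that rose depended on the scaling. Without the first BMDM-WT library at 5 h, 11 members rose.

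Ndufs4, an accessory subunit on the NADH-binding arm of complex I (chr13:114287795-114388094, mm10), was at 26.2, 26.3, 26.4 and 26.8 CPM at 0 h in BMDM-WT and at 41, 41.7, 35.9 and 37.7 CPM at 5 h. All libraries at 5 h lay above all those at 0 h, with a log2 fold change of 0.56 ± 0.07 (SE) and an adjusted p of 1.3e-08. The ATP synthase alpha subunit Atp5a1 was at 448, 432, 473 and 482 CPM at 0 h and 648, 613, 613 and 608 CPM at 5 h. Its groups did not overlap either (0.44 ± 0.06, adjusted p = 5.5e-08). Other members with the largest rises and no overlap were Atp5md, a small membrane subunit of ATP synthase (0.50 ± 0.09), Cox5a (0.48 ± 0.10) and Atp5b (0.39 ± 0.11). Cox6a2 rose by 1.28 ± 0.41, but its libraries at 5 h (0.921, 1.2, 1.12 and 0.236 CPM) overlapped those at 0 h (0.303, 0.312, 0.45 and 0.361 CPM).

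The members that fell at 5 h in BMDM-WT belonged to complex I or its assembly, apart from Cox7a2l (-0.39 ± 0.09). Ndufaf4, an assembly factor of the peripheral arm, went from 10.4, 15.5, 8.55 and 8.52 CPM to 5.52, 4.55, 5.06 and 6.86 CPM, a change of -0.98 ± 0.22 without overlap. For Ndufaf7, a methyltransferase needed for complex I assembly, the change was -0.82 ± 0.13 (adjusted p = 2e-06). The iron-sulfur core subunit Ndufs8 fell from 24.5, 23.6, 27.8 and 25.2 CPM to 16.6, 15.9, 18.4 and 16.8 CPM (-0.58 ± 0.14). The accessory subunits Ndufa6 (-0.58 ± 0.12) and Ndufv3 (-0.47 ± 0.16) fell without overlap as well, and the change of Ndufv3 was not called after a correction for transcript length or GC content (adjusted p up to 0.43).

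In BMDM-Nur77-KO, 19 members rose and 7 fell at 5 h, against 33.1% and 38.1% of all tested genes, and 1 member, Ndufaf7, was called beyond a log2 fold change of 1, against 32.4% of all genes. Ndufaf7 fell by 1.36 ± 0.14 on the log2 scale, from 10.7, 10.9, 11 and 9.12 CPM to 3.66, 4.18, 4.25 and 4.14 CPM. Ndufs8 (-0.67 ± 0.14) and Ndufb8 (-0.46 ± 0.16), a membrane-arm subunit of complex I, also fell without overlap. Ndufb8 was not called without the first library at 5 h (-0.26, adjusted p = 0.061) or in a fit of the 8 libraries alone (adjusted p up to 0.15). The largest rises without overlap were those of Ndufs5 (0.65 ± 0.16), the complex III subunits Uqcrh (0.63 ± 0.17) and Uqcrb (0.58 ± 0.16) and the complex IV subunits Cox5b (0.48 ± 0.11) and Cox6c (0.47 ± 0.11). Without the first library at 5 h these changes were 0.34 (Ndufs5), 0.34 (Uqcrh), 0.29 (Uqcrb), 0.30 (Cox5b) and 0.33 (Cox6c), each still called. Complex III had 3 of 8 genes higher and 1, Uqcr10, lower (-0.44 ± 0.19, and not called without the first library, -0.25, adjusted p = 0.2), and ATP synthase 4 of 17 higher and 0 lower. Without the third library at 5 h 14 members fell, and without the fourth 15.

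The library that stood apart set the size of several of these values. In BMDM-Nur77-KO at 5 h, Ndufs5 was at 55.1 CPM in the first library and at 28.4, 27.4 and 26.6 CPM in the others. Likewise Ndufaf2, an assembly factor related in sequence to Ndufa12, was at 17.9 CPM against 6.86, 5.12 and 5.22 CPM, and Ndufa12 at 30.1 CPM against 18.4, 17.1 and 17.9 CPM. For other members the first library was the lowest of its group. Ndufv1 was at 9.47 CPM there against 20.8, 30.3 and 29 CPM, and Atp5g2 at 2.91 CPM against 15.1, 27 and 26.8 CPM. Without that library, the rises of Ndufaf2 (0.15, adjusted p = 0.5) and Ndufa12 (0.19, adjusted p = 0.16) at 5 h were not called, and Ndufa6 was called lower (-0.33, adjusted p = 0.0032). Over all members, 17 rose and 7 fell without it.

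At 18 h the response had larger single changes but still no common direction. In BMDM-WT 16 members rose and 21 fell, against 32.9% and 33.6% of all tested genes, with a median log2 fold change of -0.09 over the members and 0.00 over all genes. In BMDM-Nur77-KO 19 rose and 14 fell, against 34.7% and 34.6%. The same 5 members were called beyond a log2 fold change of 1 in both genotypes: Cox5a, Cox6a2 and Ndufaf3 upward and Ndufaf7 and Ndufaf2 downward, where 27.4% of all genes reached that size in BMDM-WT and 31.8% in BMDM-Nur77-KO. Of these 5 genes, 3 are assembly factors, which made up 8 of the 83 members.

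Cox5a (chr9:57517328-57532427, mm10) was at 68.6, 64.2, 73.8 and 77.6 CPM at 0 h and 164, 164, 147 and 163 CPM at 18 h in BMDM-WT, with 99.4, 99.9, 97.6 and 99.1 CPM at 5 h. In BMDM-Nur77-KO it was at 65.5, 65.9, 66.5 and 73.9 CPM at 0 h, 71.4, 69.9, 90.4 and 99.9 CPM at 5 h and 173, 163, 151 and 127 CPM at 18 h. The 18 h libraries stood above every earlier library of their genotype, and the log2 fold changes from 0 h were 1.17 ± 0.10 (adjusted p = 2.4e-11) and 1.18 ± 0.10 (adjusted p = 1.8e-11). No other subunit of complex IV listed as ubiquitous was called beyond 1. Cox7a2 (0.30 ± 0.10 and 0.40 ± 0.10) rose in both genotypes, Cox5b in BMDM-Nur77-KO (0.25 ± 0.11, and 0.17, adjusted p = 0.17, without the fourth library at 18 h), and Ndufa4 fell in both (-0.36 ± 0.08 and -0.33 ± 0.08).

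Cox6a2 (chr7:128205435-128206366, mm10) rose from near the limit of measurement. Its libraries went from 0.303, 0.312, 0.45 and 0.361 CPM at 0 h to 2.73, 3.97, 2.27 and 3.26 CPM at 18 h in BMDM-WT, and from 0.543, 0.25, 0.457 and 0.629 CPM to 2.87, 3.38, 2.95 and 1.72 CPM in BMDM-Nur77-KO. All 18 h libraries lay above all others, and the changes were 3.07 ± 0.31 (adjusted p = 5.3e-10) and 2.55 ± 0.31 (adjusted p = 1.5e-08). The highest library held 42 counts, and 70 bases of the gene overlap Itgad, so some reads may belong to that gene, which was not tested.

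Ndufaf7 (chr17:78937106-78948052, mm10), whose promoter is printed at the start, fell at each step after 1 h. In BMDM-WT it was at 11.2, 10, 10.5 and 9.39 CPM at 0 h, 7.25, 4.07, 6.3 and 5.56 CPM at 5 h and 3.27, 3.03, 2.62 and 2.23 CPM at 18 h. In BMDM-Nur77-KO the 18 h libraries were at 1.88, 2.67, 1.62 and 1.97 CPM. The 0, 5 and 18 h libraries did not overlap in either genotype, and the log2 fold changes at 18 h against 0 h were -1.88 ± 0.14 (adjusted p = 4.1e-13) and -2.37 ± 0.15 (adjusted p = 3.4e-15).

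Other assembly factors moved the opposite way. Ndufaf3 (chr9:108565587-108567436, mm10), which acts with Ndufaf4 on the peripheral arm, was at 4.84, 4.89, 5.7 and 5.42 CPM at 0 h and 11.5, 11.2, 9.26 and 13 CPM at 18 h in BMDM-WT, and at 3.17, 3.75, 4.42 and 4.64 CPM and 8.96, 11, 8.3 and 6.48 CPM in BMDM-Nur77-KO. Its changes were 1.11 ± 0.15 and 1.11 ± 0.16, with no overlap in either genotype. Its partner Ndufaf4 fell in both (-0.47 ± 0.20 with overlap, and -0.79 ± 0.20 without). Ndufaf5, which hydroxylates the core subunit Ndufs7, rose in both (0.63 ± 0.16 and 0.64 ± 0.16), as did Ndufaf1 (0.47 ± 0.12 and 0.40 ± 0.12), which acts on the membrane arm. Ndufaf2 (chr13:108052589-108158652, mm10) was at 4.39, 6.87, 5.4 and 4.62 CPM at 0 h and 2.73, 1.89, 1.92 and 2.4 CPM at 18 h in BMDM-WT, and fell by 1.26 ± 0.31 on the log2 scale there and by 1.03 ± 0.30 in BMDM-Nur77-KO. Ndufa12, the subunit related to it, fell by 0.76 ± 0.15 and 0.57 ± 0.15.

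Core and accessory subunits of complex I also went both ways at 18 h. Ndufs8 (chr19:3908863-3912774, mm10) fell to 14.7, 11.7, 10.6 and 13.9 CPM in BMDM-WT (-0.99 ± 0.14) and from 20, 19.5, 21 and 24.4 CPM to 9.68, 12.6, 11.4 and 11.3 CPM in BMDM-Nur77-KO (-0.92 ± 0.14), with no overlap. Ndufs1 fell in both genotypes (-0.38 ± 0.09 and -0.45 ± 0.09). Ndufs3, a core subunit early in assembly, rose from 34.7, 29.8, 34.8 and 39.1 CPM to 52.6, 48.4, 42.6 and 51.8 CPM in BMDM-WT (0.50 ± 0.13) and also in BMDM-Nur77-KO (0.55 ± 0.13). Ndufs4 was at 38, 39.9, 41.3 and 37.3 CPM in BMDM-WT and 50.9, 49.6, 46.3 and 52.3 CPM in BMDM-Nur77-KO at 18 h, both above all libraries at 0 h (0.57 ± 0.07 and 0.80 ± 0.07). The 10 Ndufb genes of the membrane arm were counted after their values were seen. In BMDM-WT 6 fell and 2 rose, against 33.6% and 32.9% of all tested genes. In BMDM-Nur77-KO 5 fell and 1 rose, against 34.6% and 34.7%. Ndufb2, Ndufb4, Ndufb5, Ndufb8 and Ndufb11 fell in both, with the largest changes for Ndufb11 in BMDM-WT (-0.64 ± 0.11) and Ndufb8 in BMDM-Nur77-KO (-0.69 ± 0.16), and Ndufb9 rose in both (0.34 ± 0.09 and 0.46 ± 0.09).

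In complex III, the core protein Uqcrc2 rose from 71.7, 66.1, 71.4 and 77.7 CPM to 103, 103, 93.8 and 102 CPM in BMDM-WT at 18 h and from 72.7, 63.9, 70.4 and 73.7 CPM to 106, 98.3, 96.7 and 105 CPM in BMDM-Nur77-KO. Its log2 fold changes of 0.48 ± 0.06 and 0.54 ± 0.06 stood beside no called change of its partner Uqcrc1. Uqcr11, a small subunit, fell in BMDM-WT (-0.76 ± 0.24). In ATP synthase at 18 h, the stator subunit Atp5o (0.31 ± 0.10 and 0.51 ± 0.10) and Atp5md (0.26 ± 0.09 and 0.42 ± 0.09) rose in both genotypes, and Atp5a1 fell slightly below its 0 h level (-0.20 ± 0.06 and -0.15 ± 0.06).

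**Figure D2:**
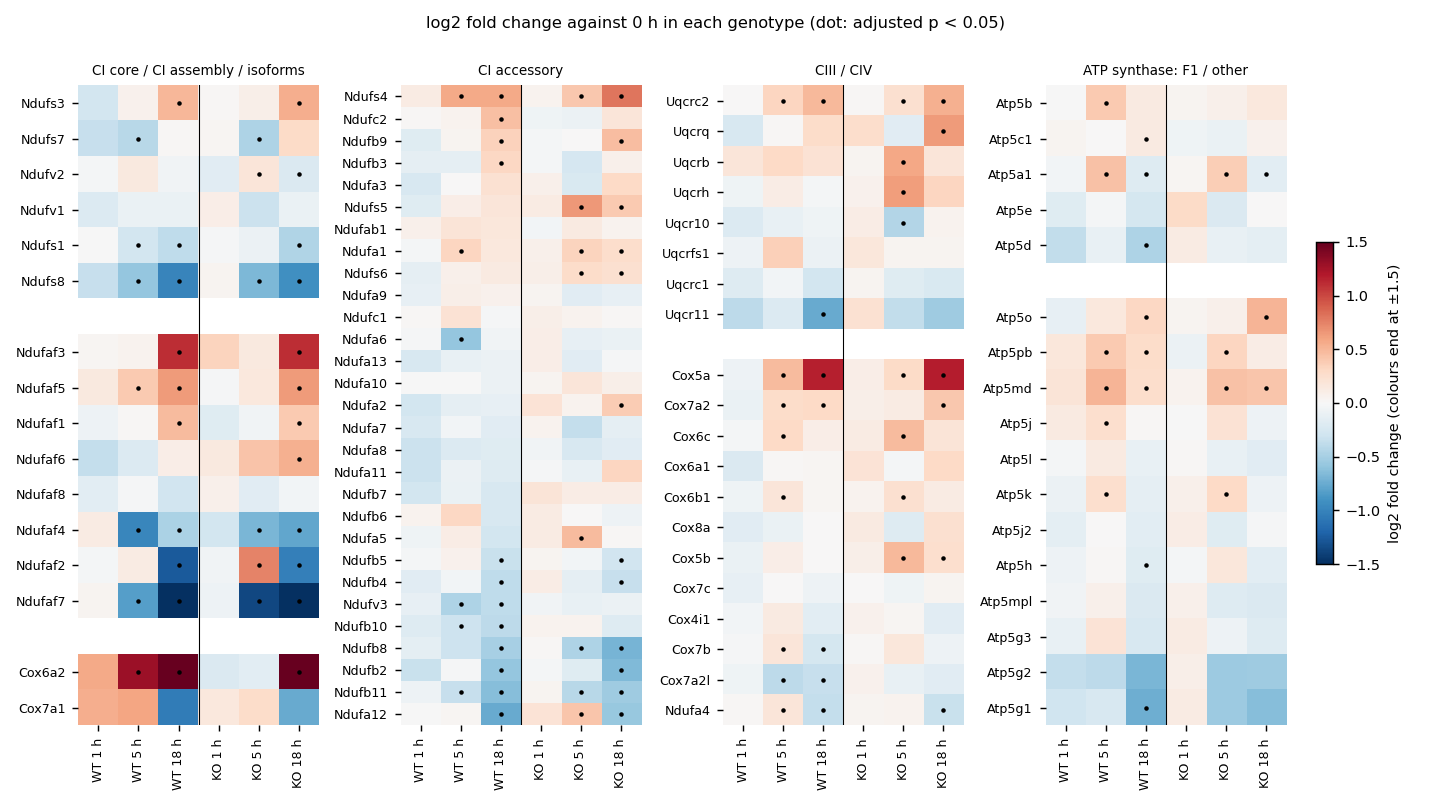
log2 fold change of the members against 0 h of the same genotype, with 1 member not shown (rows, grouped by complex; columns, 1, 5 and 18 h in BMDM-WT, then in BMDM-Nur77-KO; red higher, blue lower; a dot marks an adjusted p under 0.05). No dots stand at 1 h, and the strongest colours at 18 h are Cox6a2 and Cox5a (higher) and Ndufaf7 and Ndufaf2 (lower).

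**Figure D3:**
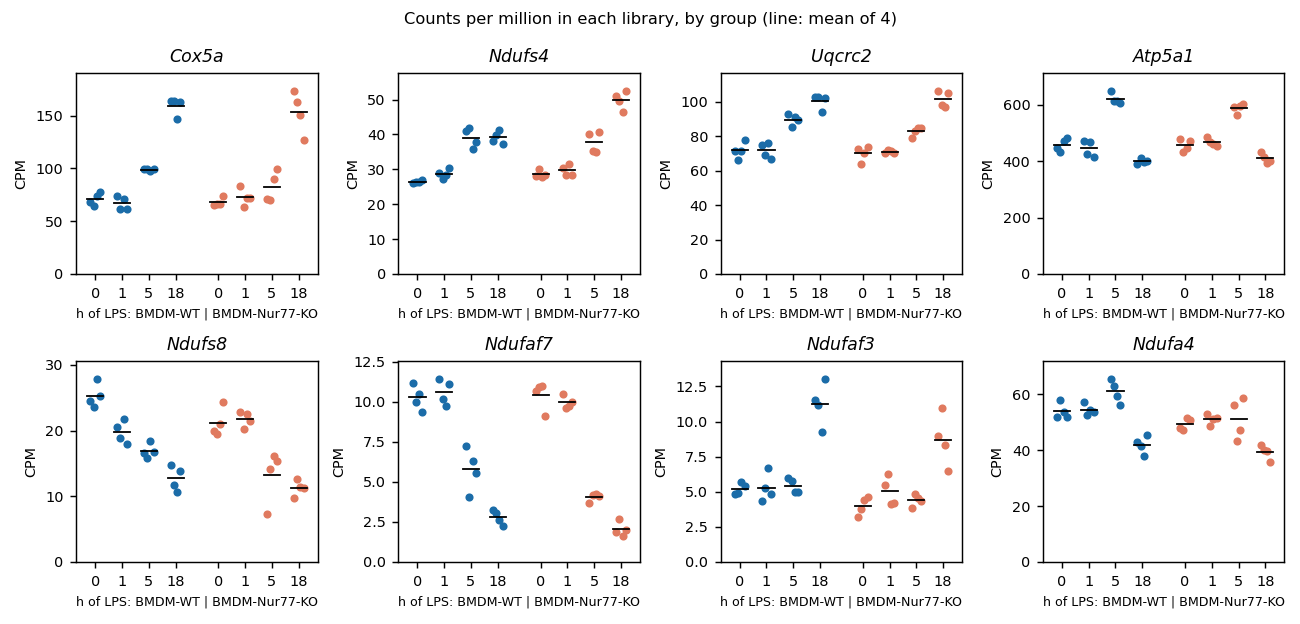
CPM of selected members in each of the 32 libraries, by genotype and time (points, libraries; line, mean of 4). Cox5a rises from 64.2 to 77.6 CPM at 0 h to 147 to 164 CPM at 18 h in BMDM-WT, and Atp5a1 is highest at 5 h.

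From 5 to 18 h, 13 members rose and 24 fell in BMDM-WT, against 35.5% and 33.8% of all tested genes, and 18 rose and 19 fell in BMDM-Nur77-KO, against 35.2% and 34.1%. With DESeq2 size factors the split in BMDM-WT was 10 higher and 30 lower. ATP synthase had 1 of 17 genes higher and 7 lower in BMDM-WT and 2 higher and 5 lower in BMDM-Nur77-KO. Atp5a1 was at 392, 413, 396 and 402 CPM at 18 h in BMDM-WT and 433, 417, 395 and 400 CPM in BMDM-Nur77-KO, below every 5 h library (-0.63 ± 0.06 and -0.52 ± 0.06). In BMDM-WT, Atp5a1, Cox7b and Ndufa4 were called higher at 5 h and lower at 18 h against 0 h, and in BMDM-Nur77-KO Atp5a1, Ndufa12, Ndufaf2 and Ndufv2 were. Without the first BMDM-Nur77-KO library at 5 h, the rises of Ndufa12, Ndufaf2 and Ndufv2 (0.10, adjusted p = 0.14) in that list were not called, and 1 ATP synthase gene was higher from 5 to 18 h.

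Other changes between 5 and 18 h concerned the isoforms and the assembly factors again. The muscle isoform Cox7a1 fell in BMDM-WT (-1.64 ± 0.51, from 1.15, 0.599, 1.01 and 0.946 CPM to 0.364, 0.284, 0.175 and 0.343 CPM), a level near the limit of measurement. Ndufaf2 (-1.39 ± 0.32 and -1.77 ± 0.30), Ndufaf7 (-1.06 ± 0.15 and -1.01 ± 0.16) and Ndufa12 (-0.79 ± 0.15 and -0.98 ± 0.15) fell in both genotypes, and Cox6a2 (1.80 ± 0.30 and 2.71 ± 0.34), Ndufaf3 (1.06 ± 0.16 and 0.97 ± 0.17) and Cox5a (0.69 ± 0.10 and 0.89 ± 0.10) rose. Ndufa6 (0.52 ± 0.12) and Ndufb3 (0.45 ± 0.12) rose in BMDM-WT, and Ndufb9 (0.45 ± 0.09) and Ndufaf1 (0.44 ± 0.12) rose and Ndufv2 (-0.40 ± 0.07) fell in BMDM-Nur77-KO. Ndufa6 came back to its starting level, with 38.6, 40.1, 43.8 and 41 CPM at 0 h, 28.1, 24.9, 28.1 and 28.4 CPM at 5 h and 39.5, 38.1, 38.5 and 41 CPM at 18 h in BMDM-WT.

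Calls were set side by side between the genotypes, which have no library in common. At 5 h, 10 members rose in both, which was 55.6% of those that rose in BMDM-WT and 52.6% of those in BMDM-Nur77-KO, and 5 fell in both (50% and 71.4%). Over all tested genes these shares were 90.7% and 84.3% of the genes that rose, and 86.2% and 88.3% of those that fell. At 18 h, 12 rose in both (75% and 63.2%) and 13 fell in both (61.9% and 92.9%), where the shares over all tested genes were 89.6% and 85% (higher) and 88.3% and 85.7% (lower). No member was called in opposite directions in the genotypes at the same time. Across the 83 members, the correlation of the log2 fold changes in the genotypes was -0.325 (1 h), 0.625 (5 h) and 0.944 (18 h), against 0.839, 0.96 and 0.952 over all tested genes, a description over genes that share libraries within each genotype. Against 0 h, 46 members were called at some time in BMDM-WT and 42 in BMDM-Nur77-KO, and 13 members were called in no comparison at all: Atp5g2, Atp5j2, Cox6a1, Cox7c, Cox8a, Ndufa10, Ndufa13, Ndufa8, Ndufab1, Ndufaf8, Ndufc1, Ndufv1 and Uqcrc1.

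**Figure D4:**
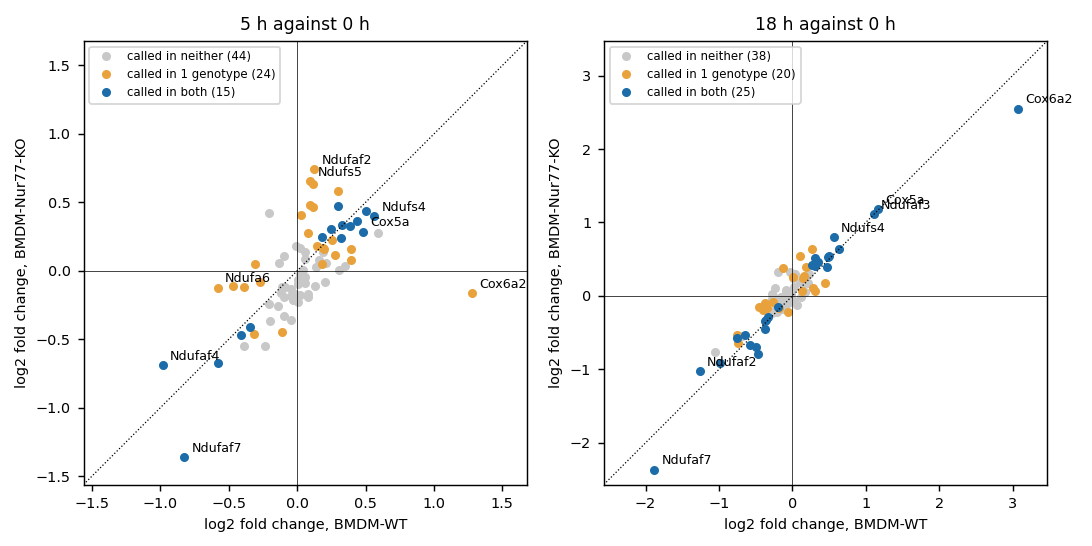
log2 fold change of the 83 members in BMDM-WT (x axis) and BMDM-Nur77-KO (y axis), at 5 h and 18 h against 0 h of the same genotype; each point is a gene, coloured by whether it was called in neither, 1 or both genotypes. Points lie closer to the diagonal at 18 h (r = 0.944) than at 5 h (r = 0.625).

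BMDM-Nur77-KO was also compared directly with BMDM-WT at each time. Replicates are not tied to separate animals, so genotype cannot be told apart from the animals or cultures used. At 0 h, BMDM-Nur77-KO had 0 of 83 members higher and 3 lower, against 5.89% and 6.66% of all tested genes. These 3 were Ndufb7 (-0.43 ± 0.11, adjusted p = 0.0087), Ndufb10 (-0.33 ± 0.10, adjusted p = 0.029) and Ndufb4 (-0.32 ± 0.11, adjusted p = 0.046), all in the membrane arm of complex I. Ndufb7 was at 23.9, 27.8, 26.5 and 25.6 CPM in BMDM-WT and 18.1, 21.6, 16.6 and 20.5 CPM in BMDM-Nur77-KO, without overlap. After a correction for transcript length the differences were -0.26, -0.17 and -0.18 (adjusted p = 0.097, 0.37 and 0.24), and without the third BMDM-Nur77-KO library at 0 h they were -0.37, -0.28 and -0.31 (adjusted p = 0.053, 0.12 and 0.11), with none called in either case. At 0 h, 1 call was left without the first or the second BMDM-Nur77-KO library, or without the third or the fourth of BMDM-WT. The trend of the library's values with transcript length, read at the members' lengths, was 0.0963 to 0.159 (log2) in BMDM-WT and -0.0776 to 0.0684 in BMDM-Nur77-KO at 0 h, and 24 of 83 cytosolic ribosomal protein genes, which are also short, were lower. The part of length in these differences was not tested beyond these values. At 1 h, edgeR called 0 of 83 members, against 3.45% and 3.03% of all genes, with 2 members at an unadjusted p under 0.05 and 0 called by DESeq2.

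The 5 h comparison gave the most calls between genotypes, and these rested on few libraries. There, BMDM-Nur77-KO had 2 members higher and 16 lower, against 13.2% and 10.6% of all tested genes, with a median log2 fold change of -0.24 over the members and 0.02 over all genes. ATP synthase had 6 of 17 genes lower, complex I subunits 4 of 36 lower and 2 higher, complex IV 3 of 12 lower, complex III 2 of 8 lower and the assembly factors 1 of 8 lower, and 7 of the 18 called members had no overlap between the genotypes. Over all tested genes 15.8% were called without overlap, which was 66.5% of the genes called. Atp5mpl, a small ATP synthase subunit, was at 39.9, 38.1, 38 and 35.5 CPM in BMDM-WT and 19.8, 19.7, 26.1 and 33.5 CPM in BMDM-Nur77-KO (-0.61 ± 0.15, adjusted p = 0.0033). The complex III subunit Uqcrq was at 25.4, 27.9, 22.3 and 20.3 CPM and at 8.39, 13.2, 19.7 and 19.6 CPM (-0.65 ± 0.21, adjusted p = 0.023). Ndufa7 (-0.65 ± 0.23), Cox7a2 (-0.35 ± 0.10) and the ATP synthase subunit Atp5l (-0.34 ± 0.12) were lower without overlap too, and Ndufa6 (0.36 ± 0.12) and Ndufs5 (0.48 ± 0.16) were higher. The first and second BMDM-Nur77-KO libraries held the lowest values of Uqcrq and Atp5mpl.

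Leaving out the first BMDM-Nur77-KO library at 5 h left 0 members higher and 5 lower. Uqcrq (-0.46, adjusted p = 0.11), Ndufa6 (0.15, adjusted p = 0.36) and Ndufs5 (0.17, adjusted p = 0.34) were then not called, nor were Ndufa7 (-0.39, adjusted p = 0.17) and Atp5l (-0.18, adjusted p = 0.24), while Atp5mpl was (-0.53, adjusted p = 0.016). Leaving out the second library left 2 higher and 4 lower, the third 6 higher and 31 lower, and the fourth 5 higher and 35 lower. Without 1 of the 4 BMDM-WT libraries at 5 h, 0 or 1 members were higher and 4, 5, 6 or 11 lower. The length trend at the members was -0.225 in the first library and -0.117 in the second, against 0.0123 to 0.0587 in BMDM-WT at 5 h. After a correction for length 3 members were higher and 11 lower, with a median of -0.11. In a fit of the 8 libraries alone 0 were called, and 43 of 83 cytosolic ribosomal protein genes were lower at 5 h (12 without the first BMDM-Nur77-KO library). What part length or these libraries had in the comparison was not tested beyond these values.

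At 18 h, BMDM-Nur77-KO had 1 member higher and 0 lower, against 12.3% and 9.45% of all tested genes. That member was Ndufs4, with 38, 39.9, 41.3 and 37.3 CPM in BMDM-WT and 50.9, 49.6, 46.3 and 52.3 CPM in BMDM-Nur77-KO, a difference of 0.35 ± 0.07 on the log2 scale (adjusted p = 0.00019). The groups did not overlap, and the call held without each library in turn and under every other setting tried. Its difference at 0, 1 and 5 h was not called.

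**Figure D5:**
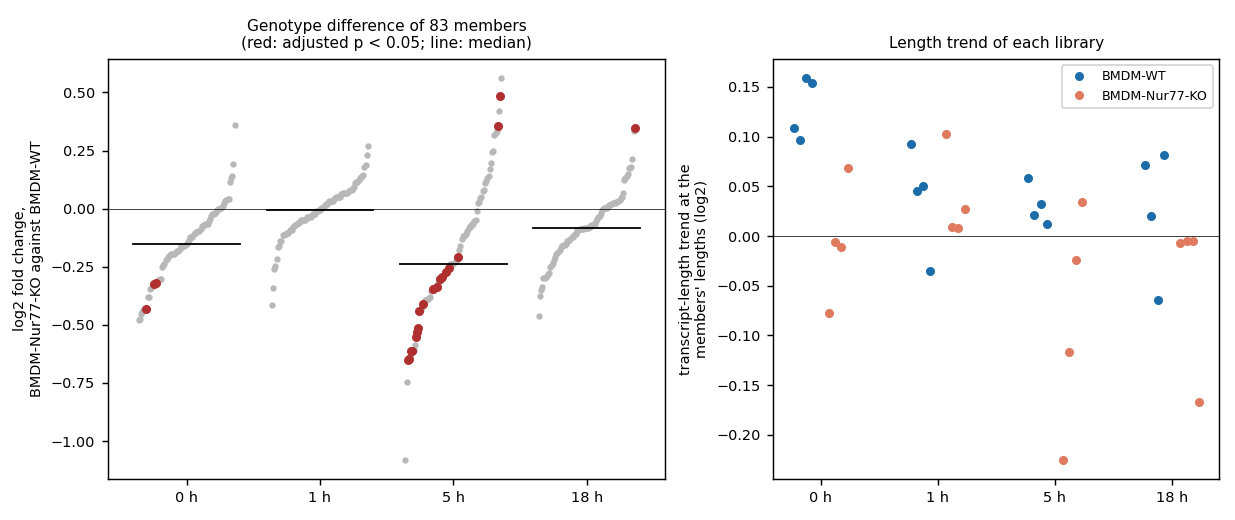
Left, log2 fold change of each of the 83 members in BMDM-Nur77-KO against BMDM-WT at 0, 1, 5 and 18 h (points, genes; red, adjusted p under 0.05; line, median). Right, trend of each library with transcript length, read at the members' lengths (log2; points, libraries). At 5 h the members' median is -0.24, and the lowest length trend, -0.225, belongs to the first BMDM-Nur77-KO library.

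Whether the LPS response itself differed between the genotypes was tested as an interaction, and edgeR called 0 members at 1 h, at 5 h and at 18 h. Over all tested genes, 0.0447% were called higher and 0.0179% lower at 1 h, at 5 h 1.8% and 1.33% were, and at 18 h 5.73% and 3.73% were. Unadjusted p-values under 0.05 were found for 2, 9 and 5 members, and DESeq2 called 0 at each time. Cox6a2 had the largest difference at 5 h (-1.44 ± 0.61, adjusted p = 0.23). At each time the smallest unadjusted p belonged to a different member. These were Ndufb7 at 1 h (0.47 ± 0.16, adjusted p = 0.43), Ndufaf7 at 5 h (-0.54 ± 0.19, adjusted p = 0.13) and Ndufs4 at 18 h (0.23 ± 0.09, adjusted p = 0.13). The difference of Ndufaf7 at 18 h was -0.49 ± 0.21 (adjusted p = 0.16). For Cox5a the difference at 18 h was 0.01 ± 0.15.

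Genes around the chain that the prefixes leave out changed as well, in both directions. AA467197, a paralogue of Ndufa4 that is known to be induced in inflamed macrophages, was at 0.757, 0.417, 1.2 and 0.578 CPM at 0 h in BMDM-WT and 244, 236, 235 and 259 CPM at 5 h, while Ndufa4 itself went from 51.8, 58.2, 53.7 and 52 CPM to 65.4, 63.2, 59.6 and 56.3 CPM. At 18 h AA467197 was at 99.5, 119, 104 and 98.4 CPM and Ndufa4 at 43.1, 41.4, 38.1 and 45.4 CPM. In BMDM-Nur77-KO, AA467197 was at 0.724, 0.438, 0.305 and 0.393 CPM at 0 h, 147, 172, 183 and 198 CPM at 5 h and 229, 205, 194 and 219 CPM at 18 h. It was thus lower than in BMDM-WT at 5 h (-0.48 ± 0.10) and higher at 18 h (1.01 ± 0.10), and the interaction at 18 h was called (1.64 ± 0.32, adjusted p = 0.00065). The interaction also takes in the 0 h libraries, which held only 8 to 16 counts in BMDM-WT and 4 to 8 in BMDM-Nur77-KO. Cycs, the electron carrier cytochrome c, rose at 5 and 18 h by 1.46 ± 0.11 and 1.47 ± 0.11 in BMDM-WT and by 1.22 ± 0.11 and 1.72 ± 0.11 in BMDM-Nur77-KO, and the genotypes differed at 18 h (BMDM-Nur77-KO the higher, 0.30 ± 0.11, and 0.18, adjusted p = 0.27, without the fourth BMDM-Nur77-KO library at 18 h). Cyc1, the cytochrome of complex III, was not called at 5 or 18 h. Of the 4 complex II genes, Sdhb, its iron-sulfur subunit, fell at 5 h (-0.37 ± 0.08 and -0.38 ± 0.08) and rose at 18 h (0.58 ± 0.08 and 0.65 ± 0.08) in BMDM-WT and BMDM-Nur77-KO. Its membrane subunits split in BMDM-WT at 18 h, Sdhd higher (0.32 ± 0.09) and Sdhc lower (-0.34 ± 0.15), and Sdhc was below its BMDM-WT level in BMDM-Nur77-KO at 0, 5 and 18 h (-0.54 ± 0.15, -0.70 ± 0.15 and -0.52 ± 0.15), the last not called without the fourth BMDM-Nur77-KO library at 18 h (-0.39, adjusted p = 0.062). Atpif1, the inhibitor of ATP hydrolysis by ATP synthase, fell at 18 h (-0.84 ± 0.16 and -0.61 ± 0.16), and in BMDM-Nur77-KO it was at 283, 161, 132 and 128 CPM at 5 h (0.46 ± 0.16 against 0 h), a change not called without the first of these libraries (0.13, adjusted p = 0.26).

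Of 37 assembly factors under other symbols, 8 rose and 15 fell at 5 h and 13 rose and 12 fell at 18 h in BMDM-WT, and 13 rose and 16 fell, then 15 rose and 8 fell, in BMDM-Nur77-KO. Without the first BMDM-Nur77-KO library at 5 h, 10 of them rose and 12 fell at 5 h. Without the fourth at 18 h, 16 rose and 7 fell at 18 h. Of all tested genes, 30.8% rose and 39.1% fell at 5 h and 32.9% and 33.6% at 18 h in BMDM-WT, and in BMDM-Nur77-KO 33.1% and 38.1%, then 34.7% and 34.6%. Of 12 tested regulators of mitochondrial biogenesis, 5 rose and 3 fell at 5 h in BMDM-Nur77-KO, and 4 rose and 4 fell at 18 h. The coactivator Ppargc1b rose by 1.79 ± 0.14 at 5 h and 1.45 ± 0.14 at 18 h in BMDM-WT. In BMDM-Nur77-KO it rose by 1.27 ± 0.13 and 0.96 ± 0.13, and it was higher there at 0 h (0.71 ± 0.14). Ppargc1a had at most 2 counts in a library. At 5 h Nrf1 rose by 0.58 ± 0.08 and 0.86 ± 0.08, and the GABP subunits Gabpa by 0.77 ± 0.15 and 1.03 ± 0.15 and Gabpb1 by 1.43 ± 0.16 and 1.98 ± 0.16, while Gabpb2 fell by 0.85 ± 0.09 and 0.62 ± 0.09. Gabpa was called lower at 18 h in BMDM-Nur77-KO (-0.39). Tfb2m, a mitochondrial transcription factor, fell by 1.06 ± 0.15 and 1.03 ± 0.14 (5 h) and by 1.06 ± 0.14 and 1.26 ± 0.14 (18 h). Polrmt, the mitochondrial RNA polymerase, fell in BMDM-Nur77-KO at 5 h (-1.13) and 18 h (-0.615). In BMDM-WT it was at 9.16, 12.1, 9.9 and 10.5 CPM at 0 h and 3.91, 3.83, 3.37 and 4.02 CPM at 5 h. Esrra rose at 18 h (1.03 ± 0.21 and 1.21 ± 0.22), and Tfam rose at 5 h (0.30 ± 0.10 and 0.53 ± 0.10). Tfb1m (-0.81 ± 0.22) and Yy1 (-0.41 ± 0.11) fell at 5 h in BMDM-WT. For comparison, 73 of 83 cytosolic ribosomal protein genes fell and 1 rose at 18 h in BMDM-WT, with a median of -0.74, and of 78 mitochondrial ribosomal protein genes 26 fell and 15 rose, against 33.6% and 32.9% of all tested genes.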

How the data were processed

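Per the labels and the methods of the study, RNA of 32 BMDM cultures was sequenced from strand-specific poly(A) libraries, aligned to mm10 with HISAT2 2.1.0 (CASAVA 1.8.2 is also in the submitters' processing notes), filtered on mapping quality with SAMtools and counted per RefSeq transcript with HOMER. Whether counting used strand is not given in the sources used here, so overlapping genes (18 members overlap a protein-coding gene) may share reads. The table deposited by the authors holds estimated counts in multiples of 0.5, of which 28.6% were not whole, and these were rounded. The authors also used DESeq2. Of 42361 transcripts, 42203 were named through RefSeq (GRCm38.p6) and 65 through GENCODE, and 93 unnamed ones (0.233 to 1.37% of counts) were left out. Each of 25067 genes was represented by its transcript of highest mean count. Of 111 RefSeq symbols with a member prefix, 19 had no row, and 30 members had more than 1.

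Counts were tested with edgeR 4.0.16 (R 4.3.3) by the quasi-likelihood test after TMM scaling, in 1 model of the 8 group means over 11192 genes with a mean above 1 RPKM in at least 1 group. P-values were adjusted by the Benjamini-Hochberg method over all tested genes, separately in each of 15 comparisons, and "called" means an adjusted p under 0.05. Errors are SD for levels and SE for log2 fold changes. Overlap between groups compares the lowest and highest libraries. On simulated data for 5 h against 0 h in BMDM-WT, over 11192 genes with 200 changed, 89% of genes changed by a log2 of 1 and 58% of those changed by 0.58 were recovered, with 10 false calls. All other genes were held equal there and no trend with length was set. In the real comparison 30.8% of tested genes rose and 39.1% fell, so these figures may not hold for it. No pair of replicates was close enough to be 1 library deposited again. Principal components 1 and 2 held 58.5% and 23.5% of the variance. The trend with transcript length is a lowess curve of each library's log2 deviation from the gene means.

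Alternatives were DESeq2 1.42.0, its size factors in edgeR, all 12193 genes passing edgeR's expression filter, the replicate number as a block, corrections for GC content or transcript length, fits of only the libraries compared, and each library left out in turn. Named with values were the 5 members with the largest called change without overlap in each direction, a panel of defining subunits and isoforms, and called genes of short context lists; other genes were named where a count or an exception called for it. The values of 1 member are not reported here, and it is kept in the counts. Members and lists were chosen with earlier results of these data known. Promoters were RefSeq windows of 250 bases before and 50 after the start, searched for fixed letters on both strands.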

Additional observations from a re-analysis of the deposited data

Results flagged for a closer look

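Among 21 members whose library values were read group by group, 14 of 168 groups of 4 had 1 library set apart from the other 3 by Dixon's criterion at the 95% level; chance alone sets apart about 1 in 20 groups. The first BMDM-Nur77-KO library at 5 h accounted for 5 of them, in each case as the highest of its group. Ndufaf2 was at 17.9 CPM there (others 5.12 to 6.86 CPM), Ndufa12 at 30.1 CPM (others 17.1 to 18.4 CPM), Ndufa6 at 49.3 CPM (others 29.9 to 31.2 CPM) and Ndufs5 at 55.1 CPM (others 26.6 to 28.4 CPM). Ndufb7 was at 22.6 CPM there, against 20.1 to 20.2 CPM. In members not set apart by this criterion it could be the lowest of its group, as for Ndufv1 (9.47 CPM, others 20.8 to 30.3 CPM). What set this library apart was not tested.

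The third BMDM-WT library at 18 h was set apart in 4 members. It held 147 CPM of Cox5a (others 163 to 164 CPM), 16.6 CPM of Ndufb7 (others 23.5 to 24.2 CPM) and 93.8 CPM of Uqcrc2 (others 102 to 103 CPM), the lowest of their group, and 11.2 CPM of Ndufaf4 (others 6.24 to 7 CPM), the highest.

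Single libraries were set apart in 5 further groups. Cox5a was at 73.9 CPM in the fourth BMDM-Nur77-KO library at 0 h (others 65.5 to 66.5 CPM), Ndufs1 at 68 CPM in the third at 1 h (others 75.3 to 75.8 CPM) and Ndufa12 at 12.8 CPM in the first at 0 h (others 16.5 to 16.6 CPM). In BMDM-WT at 5 h, Ndufa6 was at 24.9 CPM in the second library (others 28.1 to 28.4 CPM) and Atp5a1 at 648 CPM in the first (others 608 to 613 CPM). The LPS response of AA467197, the paralogue of Ndufa4, differed between genotypes at 18 h, with an interaction of 1.64 on the log2 scale. That value also takes in the 0 h libraries, which held at most 16 counts of it.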

How the results depend on the processing

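Counts of called members are given as higher and lower. Fits of only the libraries compared gave 2 and 16 at 1 h in BMDM-WT (0 and 0 in the model of all groups) and 1 lower at 1 h in BMDM-Nur77-KO, 28 higher at 5 h in BMDM-WT, 3 lower at 5 h in BMDM-Nur77-KO, and 11 and 8 from 5 to 18 h in BMDM-Nur77-KO. Between genotypes they gave 1 and 15 at 0 h, 1 higher at 1 h, 0 and 0 at 5 h, and 1 higher for the interaction at 1 h. Correction for GC content gave 34 and 6 at 5 h in BMDM-WT, 34 higher in BMDM-Nur77-KO, 37 lower from 5 to 18 h in BMDM-WT and 31 lower in BMDM-Nur77-KO, and 2 and 3 between genotypes at 18 h. For the 3 members lower in BMDM-Nur77-KO at 0 h, correction for length left 0 and DESeq2 size factors 1. DESeq2 called 1 higher at 1 h in BMDM-WT. The causes were not tested. Which direction had more calls changed in places. At 18 h in BMDM-WT, correction for length gave 20 and 19, against 16 and 21 in the model of all groups. From 5 to 18 h in BMDM-Nur77-KO, the 11 and 8 stood against 18 and 19. Testing all genes that passed the expression filter kept every count within 1.5 times.

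With each library left out in turn, counts ranged from 0 to 0 and 0 to 1 at 1 h in BMDM-WT, 11 to 17 and 9 to 10 at 5 h, and 14 to 16 and 17 to 20 (18 h). For BMDM-Nur77-KO the ranges were 0 and 0 at 1 h, 16 to 22 and 6 to 15 (5 h), and 14 to 20 and 14 to 16 (18 h). From 5 to 18 h, they were 10 to 13 and 17 to 23 in BMDM-WT and 14 to 23 and 13 to 21 in BMDM-Nur77-KO. Between genotypes, 0 to 4 were lower at 0 h, 0 to 6 higher and 4 to 35 lower at 5 h, and 1 higher and 0 to 2 lower at 18 h; interactions gave 0 to 1. Within a genotype against 0 h, counts moved by over 1.5 times without the first BMDM-WT library at 1 h (1 lower, against 0), the first at 5 h (11 higher, against 18), and replicates 3 and 4 of BMDM-Nur77-KO at 5 h (14 and 15 lower, against 7). Between genotypes at 0 h (3 lower), 1 was left without BMDM-Nur77-KO replicate 1 or 2 or BMDM-WT replicate 3 or 4, and 0 without BMDM-Nur77-KO replicate 3. At 5 h (2 and 16), each of the 8 libraries but the fourth of BMDM-WT moved the lower count, to 5, 4, 31 and 35 without BMDM-Nur77-KO replicates 1 to 4 and to 4, 5 and 6 without BMDM-WT replicates 1 to 3. At 18 h (0 lower), 2 were lower without BMDM-Nur77-KO replicate 2 or BMDM-WT replicate 3, and 1 without BMDM-WT replicate 4. The interaction gave 1 lower at 5 h without BMDM-WT replicate 2 and 1 higher at 18 h without BMDM-Nur77-KO replicate 4 (0 in both otherwise).

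Deviations of the libraries from their group means did not follow the replicate numbers. Such correlations cannot show whether equal numbers shared an animal or a preparation. Over 48 same-numbered pairs the correlation of deviations ran from -0.703 to 0.465 (median -0.0378), 11 were over 0.1, and 10 of 48 libraries matched their own number best. With the replicate block the counts in BMDM-WT were 15 and 10 (5 h) and 15 and 19 (18 h), 20 and 6 and then 16 and 14 in BMDM-Nur77-KO, 11 and 22 and 18 and 17 from 5 to 18 h, between genotypes 0 and 2 (0 h), 2 and 11 (5 h) and 1 and 0 (18 h), and elsewhere 0.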
